A study of Arabidopsis thaliana with 6 samples.

Results

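The 4 Arabidopsis auxin genes GH3.3, HAT2, IAA29 and LBD29 were examined in seedlings that carry 35S-PaWRKY1. They were chosen by name, and each was represented by 1 probe set with a single annotated gene, so that the 4 members are 4 of the 22746 probe sets tested. Affymetrix arrays measured total RNA of whole seedlings, shoot and root together, aged 7 days, from seed vernalized for 2 days and kept on full-strength MS. The 35S-PaWRKY1 group had 3 arrays, from transgenic plants in which PaWRKY1 stands behind the 35S promoter, a viral promoter that is strong in most plant tissues. The empty-vector group had 3 arrays, from control plants with pCAMBIA 1302, a vector for plant transformation. The labels call the arrays of a group biological replicates. Neither the accession of the host plants nor the number of independent transgenic lines is given in the labels, and a p-value here covers only the spread among these arrays. PaWRKY1 itself was not analysed here.

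Auxin acts by joining its TIR1/AFB receptors to Aux/IAA proteins, which are then degraded. Aux/IAA proteins repress the auxin response factors, or ARFs, so their loss lets these transcription factors act on auxin-responsive genes. Among the genes that auxin induces are Aux/IAA genes and GH3 genes, which both limit the response, the first by repression and the second by conjugating the hormone to amino acids. In seedlings, auxin promotes elongation of the hypocotyl in shade and warmth, and in the root it starts lateral roots.

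The deposited values were centred, for each probe set, on the mean of the 3 empty-vector arrays. A value is therefore a difference from that mean and not a level, and the genes cannot be ranked by abundance, nor can the tissue be checked against markers that should be present or absent. The log base and the direction are not stated. The values were read as log2 with a higher value for more transcript, by the convention of the summary method RMA. The labels name RMA beside MAS5, without a role for either. Over all probe sets, 41.7% of the variance lay along a first principal component. On it, only the arrays numbered 3 of both groups were above 0, at 12.8 for 35S-PaWRKY1 and 40.7 for the empty vector. The other 4 arrays were at -22.4 to -2.73. The 35S-PaWRKY1 array numbered 3 lay nearer to empty-vector replicate 2, at -2.73, than to empty-vector replicate 3. Values are therefore also given without both arrays numbered 3.

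None of the 4 genes differed between the genotypes at an adjusted p under 0.05. GH3.3, HAT2 and IAA29 had a mean above the empty-vector mean and LBD29 a mean below it. In limma's moderated test, with p-values adjusted over every probe set by the Benjamini-Hochberg method, 0 of the 4 passed, where 7 of 22746 probe sets, or 0.0308%, did. With all arrays, the count at an unadjusted p under 0.05 was also 0 of 4, against 8.01% of all probe sets. Some fits with arrays left out or weighted gave single genes an unadjusted p under 0.05, as listed in the closing section. The 35S-PaWRKY1 and empty-vector arrays overlapped for each of the 4, while they did not overlap for 14.5% of all probe sets. The median difference of the 4 was 0.31, and that of all probe sets was -0.04, with 39.5% of all probe sets above 0.

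GH3.3 (AT2G23170, probe set 245076_at) encodes an amido synthetase that conjugates the auxin indole-3-acetic acid to amino acids, and it is an early auxin-inducible gene. Its log values were 0.36, 0.39 and 0.22 in 35S-PaWRKY1 replicates 1, 2 and 3, against -0.34, 0.06 and 0.28 in empty-vector replicates 1, 2 and 3. The 35S-PaWRKY1 arrays lay close together, with an SD of 0.09, and the empty-vector arrays were spread over a wider range, with an SD of 0.32. Empty-vector replicate 3 was above 35S-PaWRKY1 replicate 3, and empty-vector replicate 1 was the lowest array of all. The difference, 35S-PaWRKY1 minus empty vector, was 0.33 (SE 0.163, 95% confidence interval -0.06 to 0.71, n = 3 per group), or 1.25-fold if the base is 2, with an adjusted p of 0.67 in limma. Without empty-vector replicate 1 the difference was 0.15, and without both arrays numbered 3 it was 0.52.

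HAT2 (AT5G47370, probe set 248801_at) encodes a homeodomain-leucine zipper transcription factor of class II that auxin induces, and its overexpression is known to lengthen hypocotyls. The log values were 0.69, 0.85 and -0.20 in 35S-PaWRKY1 replicates 1, 2 and 3, against 0.24, -0.24 and -0.0011 in empty-vector replicates 1, 2 and 3. The 35S-PaWRKY1 arrays were split: replicates 1 and 2 stood above every empty-vector array, and replicate 3 was near the lowest of them. The SD of the 35S-PaWRKY1 arrays, 0.57, was higher than that of 97.9% of probe sets in that group, and the SD of the empty-vector arrays was 0.24. The difference was 0.45 (SE 0.281, 95% confidence interval -0.22 to 1.12, n = 3 per group), 1.36-fold if log2, with an adjusted p of 0.743 in limma. It was 0.77 without 35S-PaWRKY1 replicate 3, 0.77 without both arrays numbered 3 and 0.25 without 35S-PaWRKY1 replicate 2. With array weights, which give less influence to arrays that deviate more, it was 0.70. The adjusted p in limma was 0.406, 0.383, 0.997 and 0.356 in these 4 fits.

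IAA29 (AT4G32280, probe set 253423_at) encodes an Aux/IAA repressor known as a target of the PIF factors in shade and warmth. Its log values were 0.77, 0.011 and 0.12 in 35S-PaWRKY1 replicates 1, 2 and 3, against 0.03, 0.04 and -0.07 in empty-vector replicates 1, 2 and 3. A single array, 35S-PaWRKY1 replicate 1, stood far above the rest, and 35S-PaWRKY1 replicate 2 lay inside the range of the empty-vector arrays. The spread differed between the groups, with an SD of 0.41 in 35S-PaWRKY1 and 0.06 in the empty vector. The difference was 0.30 (SE 0.196, 95% confidence interval -0.16 to 0.76, n = 3 per group), 1.23-fold if log2, with an adjusted p of 0.754 in limma. Without 35S-PaWRKY1 replicate 1 it was 0.07, and without both arrays numbered 3 it was 0.355.

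LBD29 (AT3G58190, probe set 251565_at) encodes a lateral organ boundaries domain transcription factor that acts downstream of ARF7 and ARF19 in the start of lateral roots. The log values were -0.11, -0.19 and -0.21 in 35S-PaWRKY1 replicates 1, 2 and 3, against 0.14, 0.0052 and -0.15 in empty-vector replicates 1, 2 and 3. All 35S-PaWRKY1 arrays were below the empty-vector mean, but empty-vector replicate 3 was lower than 35S-PaWRKY1 replicate 1. The SD was 0.06 in 35S-PaWRKY1 and 0.15 in the empty vector. The difference was -0.17 (SE 0.101, 95% confidence interval -0.41 to 0.07, n = 3 per group), a factor of 1.13 downward if log2, with an adjusted p of 0.72 in limma. Without empty-vector replicate 1 it was -0.10, and without both arrays numbered 3 it was -0.23.

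**Figure D1:**
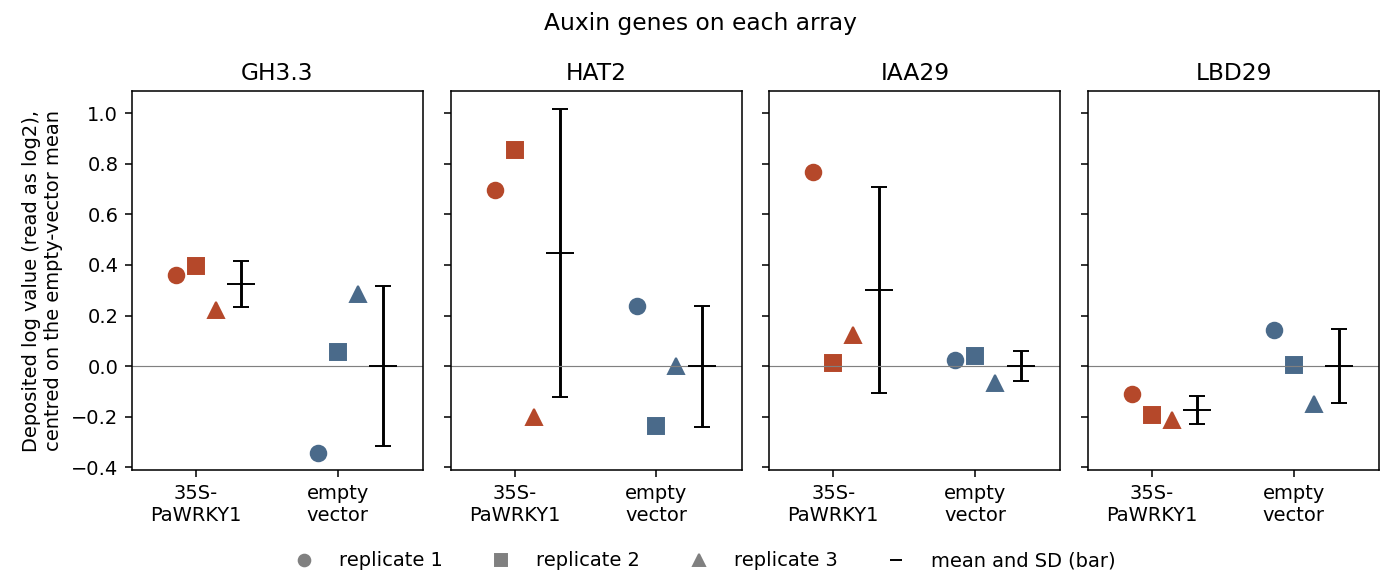
Deposited log value, read as log2 and centred on the empty-vector mean (y axis), of the 4 genes on each array, with 35S-PaWRKY1 left of the empty vector, a symbol for each replicate number, and the group mean with its SD beside the points. For HAT2, 35S-PaWRKY1 replicates 1 and 2 are at 0.69 and 0.85 and replicate 3 at -0.20, and for IAA29 replicate 1 is alone at 0.77.

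The genes therefore did not share an order of arrays. Of the 35S-PaWRKY1 arrays, GH3.3 and HAT2 were highest in replicate 2 and IAA29 and LBD29 in replicate 1. HAT2 and IAA29 parted on 35S-PaWRKY1 replicate 2, at 0.85 for HAT2 and 0.011 for IAA29. Among the empty-vector arrays, GH3.3 and LBD29 ran in opposite order: replicate 1 had the lowest GH3.3 value and the highest LBD29 value, and replicate 3 the highest GH3.3 value and the lowest LBD29 value.

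Replicate numbers were taken to pair the arrays, on the grounds given in the account of the processing. Between arrays of the same number, 35S-PaWRKY1 minus empty vector, LBD29 was lower in each of 3 pairs, by -0.25, -0.20 and -0.06 for numbers 1, 2 and 3. All same-numbered differences were negative for 21.7% of all probe sets as well. GH3.3 differed by 0.70, 0.34 and -0.06 for these numbers, HAT2 by 0.46, 1.09 and -0.20, and IAA29 by 0.74, -0.03 and 0.19. Each of these 3 genes was thus higher in 2 of 3 pairs. For GH3.3 and HAT2 the exception was number 3, and for IAA29 it was number 2.

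**Figure D2:**
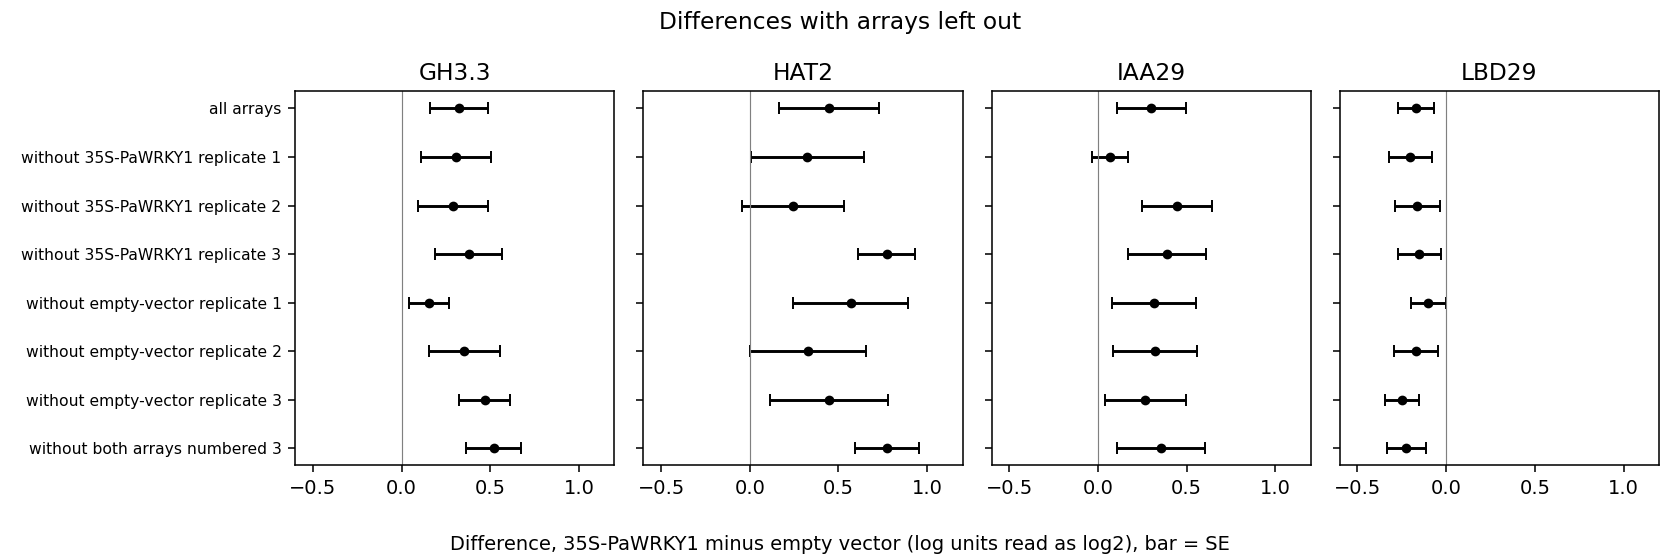
Difference, 35S-PaWRKY1 minus empty vector, in log units read as log2 (x axis, bar = SE of the moderated fit), of the 4 genes with all arrays, with each array left out in turn and without both arrays numbered 3 (rows). The direction stays the same in every row. IAA29 drops to 0.07 without 35S-PaWRKY1 replicate 1, and HAT2 reaches 0.77 without 35S-PaWRKY1 replicate 3.

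HAT2 and IAA29, which act in shoot elongation, were set against LBD29, which acts in the root. The mean of HAT2 and IAA29 was 0.73, 0.43 and -0.04 in 35S-PaWRKY1 replicates 1, 2 and 3, against 0.13, -0.10 and -0.03 in the empty vector. Replicate 3 of 35S-PaWRKY1 was thus within the range of the empty-vector arrays for the shoot regulators. After subtracting LBD29 the values were 0.84, 0.63 and 0.18 in 35S-PaWRKY1, against -0.01, -0.10 and 0.12 in the empty vector. The lowest 35S-PaWRKY1 array then lay above the highest empty-vector array, by less than the SD of the empty-vector arrays. The group means differed by 0.55, with an SD over arrays of 0.34 in 35S-PaWRKY1 and 0.11 in the empty vector. This is a description without a test, since the genes and their grouping were chosen with earlier results known. HAT2 minus LBD29 alone overlapped between the groups, at 0.80, 1.05 and 0.011 in 35S-PaWRKY1 and 0.10, -0.24 and 0.15 in the empty vector. IAA29 minus LBD29 did not overlap, at 0.88, 0.20 and 0.34 in 35S-PaWRKY1 and -0.12, 0.04 and 0.08 in the empty vector. GH3.3 minus LBD29, 0.47, 0.59 and 0.44 in 35S-PaWRKY1 and -0.49, 0.05 and 0.43 in the empty vector, did not overlap either, by a small margin. HAT2 minus IAA29 overlapped. How often such differences between other genes separate the groups was not counted.

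In whole seedlings, a lower value from fewer cells of a type and a lower value from less RNA per cell cannot be told apart. Genes of shoot and root tissue were therefore read beside the regulators. Of 51 listed nuclear photosynthesis genes, only 7 were matched to a probe set. All 7 had a mean above the empty-vector mean, as 39.5% of all probe sets did. Their median difference was 0.09, against -0.04 for all probe sets. Their mean per array was 0.20, 0.13 and 0.08 in 35S-PaWRKY1 replicates 1, 2 and 3, against 0.08, -0.0008 and -0.08 in the empty vector. Of 13 listed root hair and root uptake genes, only 3 were matched, the root hair genes XTH26, EXPA7 and EXPA18. All 3 had a mean below the empty-vector mean, which was also the more common direction over all probe sets. Their median difference was -0.13. Their mean per array was -0.14, -0.04 and -0.37 in 35S-PaWRKY1 and -0.22, 0.08 and 0.14 in the empty vector. The groups overlapped for both of these means. Between arrays numbered 1, 2 and 3, the mean of the photosynthesis genes was higher in 35S-PaWRKY1 in each pair, by 0.12, 0.13 and 0.16. How many of all probe sets were higher in each pair was not counted. The mean of the root hair genes differed by 0.08, -0.12 and -0.52 for these numbers. The root hair genes were not uniform: over 12 alternative settings EXPA7 changed sign in 3, EXPA18 in 1 and XTH26 in 0. Of the photosynthesis genes, PSBY changed sign in 1 setting and the others in 0, with LHCB4.2 as low as 0.000333. Among these settings, the replicate block and robust eBayes cannot change a difference. At an adjusted p under 0.05 in limma, 0 of these 10 genes passed; LHCB4.3, an antenna gene at 0.39 (SE 0.128), and XTH26, a cell wall gene of root hairs at -0.39 (SE 0.126), had unadjusted p-values under 0.05, as 8.01% of all probe sets did. Without both arrays numbered 3, XTH26 was at -0.28 with an unadjusted p of 0.104 in limma, and LHCB4.3 at 0.34 with 0.0255. Without 35S-PaWRKY1 replicate 2, LHCB4.3 was at 0.33 with an unadjusted p of 0.0693 in limma. Which markers are at background cannot be read from centred values. The part of tissue proportions in the regulators' differences was not tested.

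**Figure D3:**
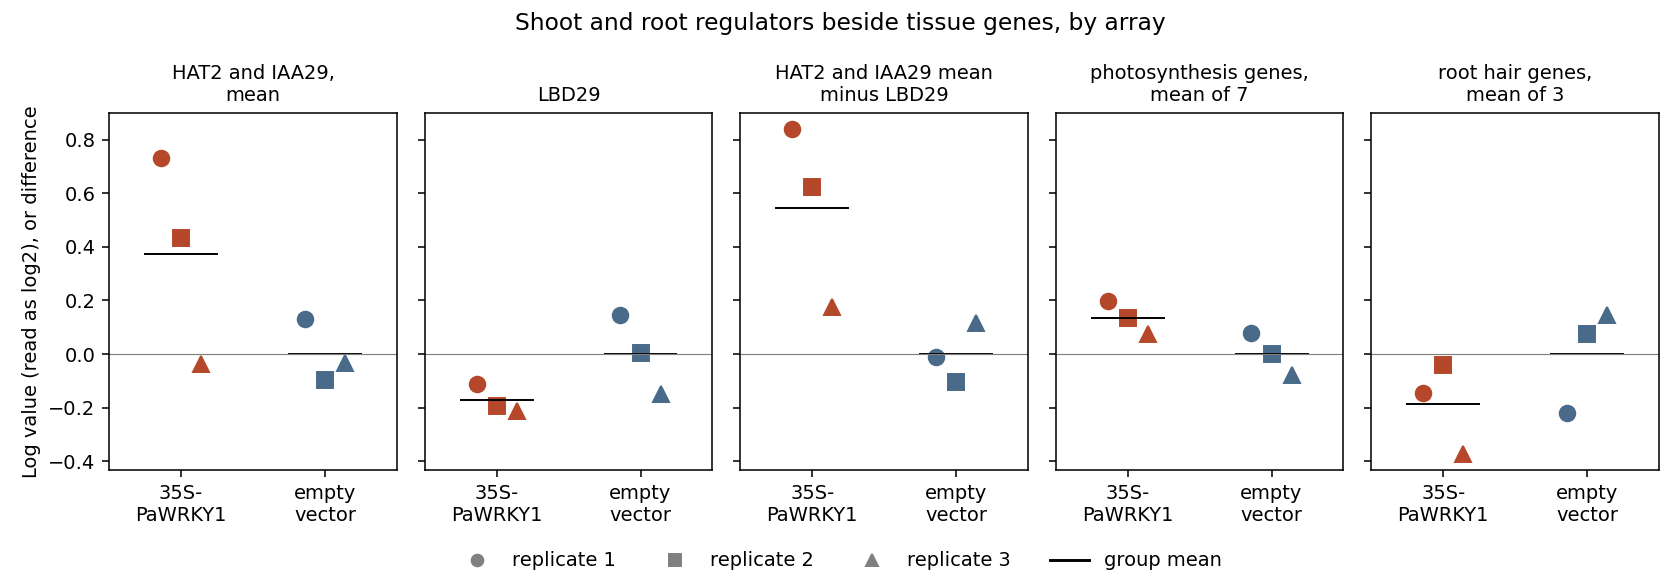
Log value read as log2, or a difference of such values (y axis), on each array for the mean of HAT2 and IAA29, for LBD29, for the first minus the second, and for the means of 7 photosynthesis and 3 root hair genes, with 35S-PaWRKY1 left of the empty vector and a line at each group mean. The difference of regulators is 0.18 to 0.84 in 35S-PaWRKY1 and -0.10 to 0.12 in the empty vector.

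The wider auxin pathway was read from 12 gene lists, of which 5 had no gene matched to a probe set through the annotation used here: the ARFs, the SAUR genes, the auxin carriers, the receptors and the shade regulators. The other lists gave 24 probe sets, the 4 genes above included. In limma over all probe sets, 0 of the 24 passed. The median difference of the 24 was 0.03, against -0.04 for all probe sets, and 58.3% were above the empty-vector mean, against 39.5%. Among the 20 others, 4 had an unadjusted p under 0.05, or 20%, against 8.01% of all probe sets, with 3 of these above control, where 3.96% of all probe sets were, and 1 below, where 4.04% were. The groups did not overlap for 6 of the 20, or 30%, against 14.5%. Of these 6, 4 had the 35S-PaWRKY1 arrays above, against 5.34% of all probe sets, and 2 below, against 9.17%. The lists were drawn up with earlier results known, and these counts are descriptions.

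In the GH3 family, 5 of 11 genes were matched. GH3.9 had the largest difference of these 5. Its log values were 0.78, 0.76 and 0.22 in 35S-PaWRKY1 replicates 1, 2 and 3, against 0.16, -0.07 and -0.09 in empty-vector replicates 1, 2 and 3, so every 35S-PaWRKY1 array was above every empty-vector array. The difference was 0.59 (SE 0.169, 95% confidence interval 0.19 to 0.99), with an unadjusted p of 0.0104 and an adjusted p of 0.433 in limma, and it was 0.72 without both arrays numbered 3. WES1, also known as GH3.5, was at 0.73, 0.03 and -0.10 in 35S-PaWRKY1, against -0.0088, -0.23 and 0.24 in the empty vector. As for IAA29, 35S-PaWRKY1 replicate 1 alone was high, and without it the difference of WES1 was -0.03 in place of 0.22. GH3.17 was at 0.08 (SE 0.178), with -0.09 without empty-vector replicate 1 and 0.26 without empty-vector replicate 3. GH3.1 was at -0.03 (SE 0.0977).

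Of the 29 Aux/IAA genes, 7 were matched. IAA18 had the opposite direction to IAA29. Its log values were -0.31, -0.33 and -0.33 in 35S-PaWRKY1 replicates 1, 2 and 3, against -0.13, 0.04 and 0.08 in empty-vector replicates 1, 2 and 3, with every 35S-PaWRKY1 array below every empty-vector array. The difference was -0.33 (SE 0.0893), with an unadjusted p of 0.00853 and an adjusted p of 0.417 in limma, and it was -0.28 without both arrays numbered 3. IAA30 was at 0.17, 0.40 and 0.11 in 35S-PaWRKY1, against -0.08, 0.06 and 0.02 in the empty vector, without overlap, and its difference was 0.23 (SE 0.105, adjusted p 0.646 in limma), or 0.14 without 35S-PaWRKY1 replicate 2, its highest array. IAA20, IAA33, IAA31 and IAA34 had differences of -0.09 to 0.05. The Aux/IAA list thus held members on both sides of 0, with a median of 0.03. HAT2 was the single matched gene of 9 HD-ZIP class II genes, so its relatives, among them HAT1 and HAT3, were not analysed here.

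Among auxin synthesis genes, 3 of 17 were matched, all of the YUC family of flavin monooxygenases that make indole-3-acetic acid. YUC4 was at 0.43, 0.35 and 0.39 in 35S-PaWRKY1 replicates 1, 2 and 3, against 0.27, -0.16 and -0.11 in empty-vector replicates 1, 2 and 3. The 35S-PaWRKY1 arrays were close together and all above the empty-vector arrays. The difference was 0.39 (SE 0.129), with an unadjusted p of 0.0196 and an adjusted p of 0.513 in limma. Without both arrays numbered 3 it was 0.33, with an unadjusted p of 0.0925 in limma. YUC2 was at 0.01 (SE 0.0781) and YUC6 at -0.08 (SE 0.186). In the list of auxin turnover genes, 4 of 12 were matched. UGT84B1, a glucosyltransferase that acts on indole-3-acetic acid, was at -0.23, -0.12 and -0.22 in 35S-PaWRKY1, against 0.0097, -0.05 and 0.04 in the empty vector, without overlap, with a difference of -0.19 (SE 0.0807, adjusted p 0.622 in limma). UGT74D1 was at -0.11 (SE 0.222). The neighbouring loci AT1G14120 and AT1G14130, to which the tables give no name, were at 0.76 (SE 0.29, unadjusted p 0.0351, adjusted p 0.584 in limma) and -0.10 (SE 0.162). For AT1G14120, 35S-PaWRKY1 replicate 3 was the highest array at 1.37; the difference was 0.45 without it and 0.28 without both arrays numbered 3, with unadjusted p-values of 0.0726 and 0.122 in limma.

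Besides LBD29, 3 of the 16 lateral root regulators were matched. LBD16, which acts beside LBD29 in the start of lateral roots, was at 0.10, 0.18 and -0.13 in 35S-PaWRKY1 replicates 1, 2 and 3, against -0.08, -0.05 and 0.13 in empty-vector replicates 1, 2 and 3. Its groups overlapped, and its difference was 0.05 (SE 0.115, 95% confidence interval -0.22 to 0.32), while that of LBD29 was -0.17. PUCHI, a transcription factor of the lateral root primordium, was at 0.03 (SE 0.115), and CR4, a receptor kinase known as ACR4 in the root, at -0.12 (SE 0.155). None of these 3 had an unadjusted p under 0.05. LBD16 and LBD29 were the 2 matched genes of 40 in the LBD family.

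**Figure D4:**
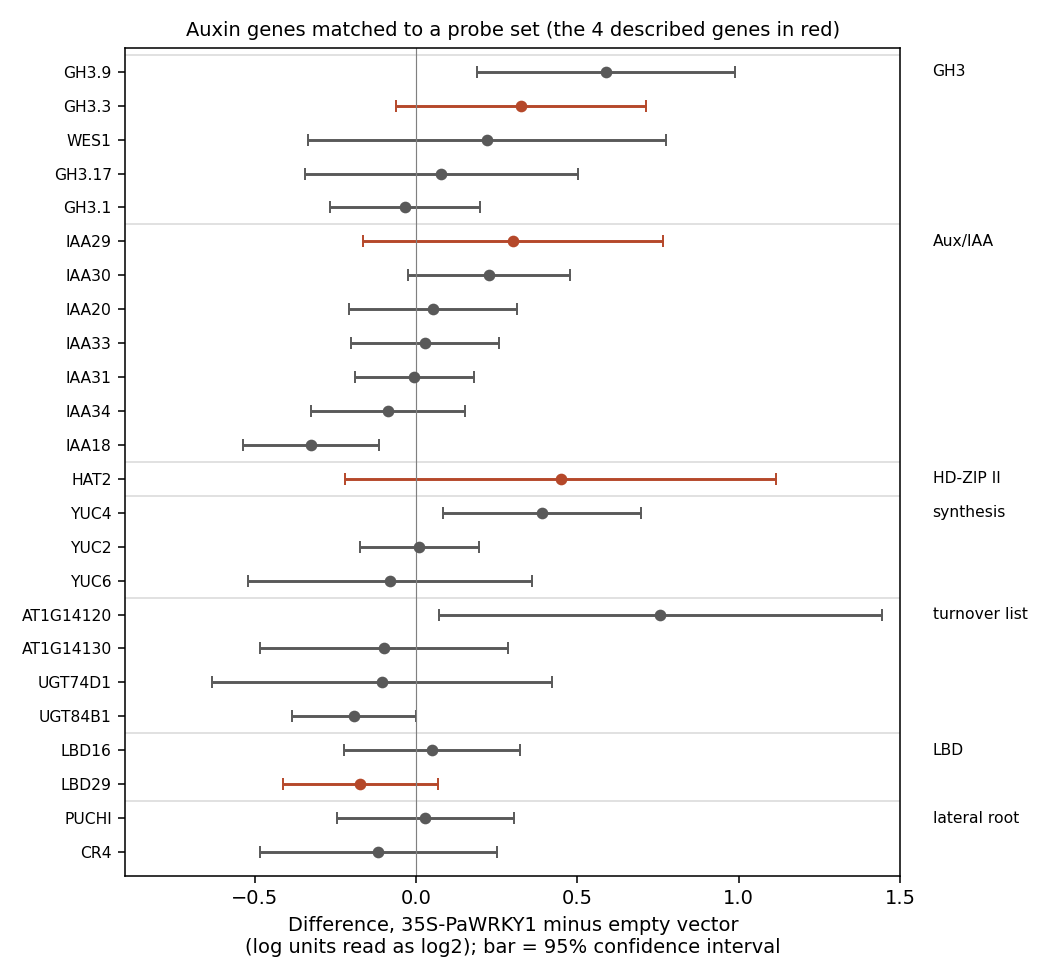
Difference, 35S-PaWRKY1 minus empty vector, in log units read as log2 with its 95% confidence interval (x axis), for the 24 auxin probe sets by list (rows), with the 4 described genes in red. The intervals of the 4 genes include 0, and those of GH3.9, YUC4, AT1G14120 and IAA18 do not, before any adjustment for the number of probe sets.

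The genes whose profile over the 6 arrays was most like each of the 4 were sought by Pearson correlation among probe sets of 1 gene that has a symbol other than its locus tag and an SD over arrays of at least 0.2, of which there were 645 or 646. The best of these profiles were taken each time, over only 6 arrays, so the correlations are descriptions. GH3.3 was most like CML42, for a calmodulin-like protein (r = 0.959), BZIP28, for a transcription factor of the endoplasmic reticulum stress response (0.93), and ALPHA-VPE, for a vacuolar processing enzyme (0.929). All shared the low value of empty-vector replicate 1, at -0.23 for CML42, -0.36 for BZIP28 and -0.48 for ALPHA-VPE. HAT2 was most like TBL21, of the trichome birefringence-like family (0.99), WSD1, for a wax ester synthase (0.939), and PSF2, for a subunit of the GINS complex of DNA replication (0.912). WSD1 was at 1.00, 0.90 and 0.16 in 35S-PaWRKY1, against 0.32, -0.23 and -0.09 in the empty vector.

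IAA29 was most like ATL8, of a family of RING ubiquitin ligases (0.971), ATPMEPCRB, for a pectin methylesterase (0.945), and WRKY22, an Arabidopsis WRKY gene (0.939). In these 3 genes too, 35S-PaWRKY1 replicate 1 stood apart, at 1.03 for ATL8, 2.29 for ATPMEPCRB and 1.55 for WRKY22, while the other 35S-PaWRKY1 arrays were at 0.05 and 0.18, 0.39 and 0.16, and 0.22 and 0.22. LBD29 was most like CHL, for a chloroplast lipocalin (0.928), REM22, of the reproductive meristem family (0.915), and ATG8F, an autophagy gene (0.901). CHL was at -0.54, -0.41 and -0.64 in 35S-PaWRKY1, against 0.31, -0.04 and -0.27 in the empty vector, without overlap. The adjusted p in limma of these 12 genes ran from 0.45 to 0.904.

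**Figure D5:**
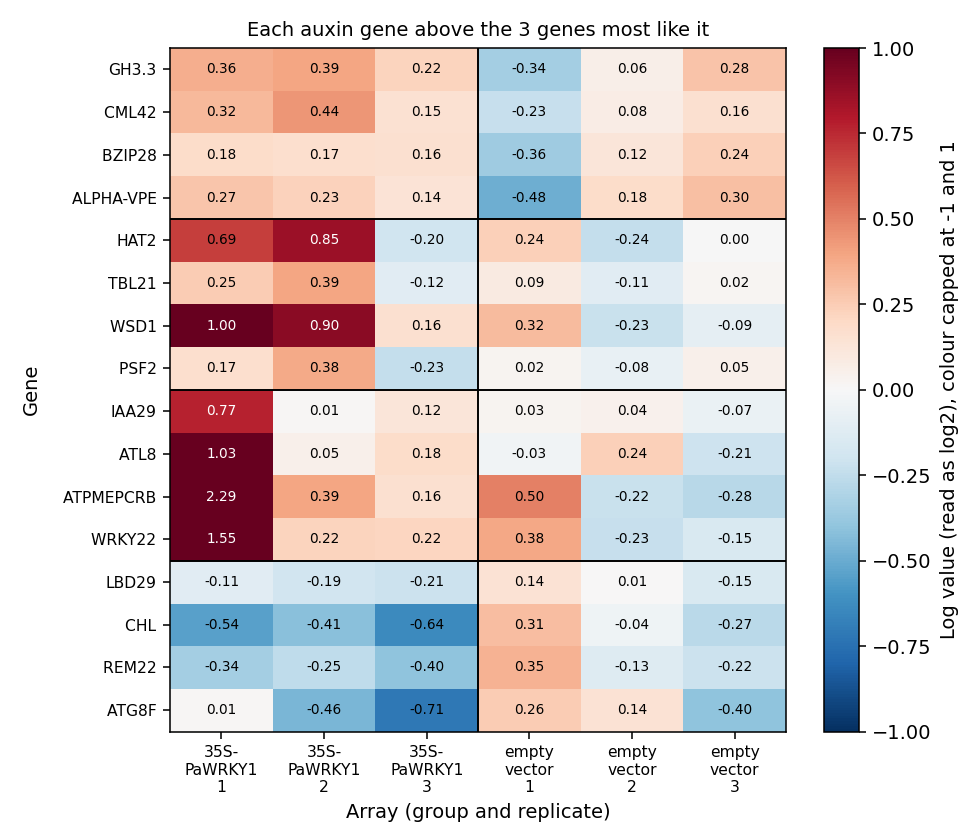
Log value read as log2 (colour, with the value printed in each cell) on the 3 35S-PaWRKY1 and 3 empty-vector arrays (columns) for each of the 4 auxin genes and the 3 genes most like it (rows). The rows of IAA29 are marked by 35S-PaWRKY1 replicate 1, those of HAT2 by 35S-PaWRKY1 replicates 1 and 2, and those of GH3.3 by a low empty-vector replicate 1.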

How the data were processed

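The authors deposited 1 table of log values for 6 Affymetrix arrays, read here as log2 values; MAS5 and RMA are named in the submitters' processing notes with no version or role, and neither the log base nor any step that made the arrays comparable is stated there. The empty-vector mean is 0 for every probe set, as tested on the file; the largest absolute mean was 1.27e-06. Of 22810 probe sets, 64 Affymetrix controls were left out. The platform annotation held by GEO, possibly outdated, gave 1 gene to 13513 probe sets, several to 503 and none to 8730, and symbols were updated through RefSeq (TAIR10.1), where 13436 matched. Differences were tested on the deposited values in a two-sided moderated test (limma 3.58.1, lmFit then eBayes; R 4.3.3), and p-values were adjusted by Benjamini-Hochberg over 22746 probe sets, with a threshold of 0.05, after a test on simulated data. The number of arrays limits the precision.

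Deviations from group means of same-numbered arrays correlated across probe sets by 0.314, 0.194 and 0.453 for numbers 1, 2 and 3, each more than 0.1. Among unlike numbers, 35S-PaWRKY1 replicate 2 with empty-vector replicate 1 also passed 0.1, at 0.171, and the rest ran from -0.406 to 0.0473. The deviations within a group cancel each other, so these correlations are not independent, and the cut does not single out same numbers. The numbers are treated as pairs on this limited basis, from the data and not from the labels. The fit without the block is the reported one. Genes and lists were chosen with earlier results of these data known; the 4 genes, list members with an unadjusted p under 0.05 or, otherwise, the smallest p, their matched relatives and the 3 most similar profiles of each gene are named. The remaining matched list genes are named beyond that rule, so that each list is given whole, apart from tissue genes. Alternatives were the replicate block, quantile normalization, median centring, array weights, robust eBayes, averaging per gene and leaving out arrays. Python 3.11.15 and matplotlib 3.10.9 drew the figures.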

Additional observations from a re-analysis of the deposited data

How the results depend on the processing

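The 4 genes kept their direction and stayed short of the threshold under each of 13 alternatives. The replicate block, robust eBayes and averaging per gene could not change the difference of these genes, so only the others bear on direction. The lowest adjusted p in limma over the 13 alternatives was 0.356 for GH3.3, 0.356 for HAT2, 0.556 for IAA29 and 0.447 for LBD29. An unadjusted p under 0.05 in limma did arise in some of these fits. For HAT2 it was 0.003 without 35S-PaWRKY1 replicate 3, 0.006 without both arrays numbered 3 and 0.027 with array weights. For GH3.3 it was 0.0162 without empty-vector replicate 3, 0.0172 without both arrays numbered 3 and 0.027 with array weights. LBD29 was at 0.0421 without empty-vector replicate 3, and IAA29 stayed at 0.0673 or above. With the replicate number as a block, the adjusted p was 0.525 for GH3.3, 0.554 for HAT2, 0.556 for IAA29 and 0.555 for LBD29, and the block changed no call among the auxin genes. With single arrays left out, the difference ran from 0.15 to 0.47 for GH3.3, 0.25 to 0.77 for HAT2, 0.07 to 0.45 for IAA29 and -0.25 to -0.10 for LBD29. The mean of HAT2 and IAA29 minus LBD29 differed by 0.40 to 0.79 over 9 alternatives. Median centring, which is among them, cannot change this score. Repeating these settings for the wider lists was chosen after seeing the data: 0 of the 24 auxin probe sets passed under any of 12 settings, with a lowest adjusted p of 0.183, and 2 to 7 had an unadjusted p under 0.05. With single arrays left out, the difference of WES1 ran from -0.034, which was without 35S-PaWRKY1 replicate 1, to 0.38. Of 34 auxin and tissue genes, 16 changed sign under at least 1 of these settings.

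The 7 calls over all probe sets were 6 with the block and 11 with array weights. They were 0 with quantile normalization, 0 per gene and 0 without both arrays numbered 3, where limma gave an unadjusted p under 0.05 to 1022 of 22746 probe sets, 1034 of 13355 genes (7.74%) and 1914 of 22746 probe sets. Quantile normalization was run on the centred values and not on levels. Their SD over probe sets was 0.16 to 0.24 on empty-vector arrays and 0.28 to 0.29 on 35S-PaWRKY1 arrays. The step makes these spreads equal, so its count is no check on how the levels were normalized. The fit per gene kept only the 13513 probe sets with 1 annotated gene. Whether the 7 calls were among those was not examined. Robust eBayes left 1 call, as did the stricter threshold of 0.01. Without any single array the calls were 0 to 1, the 0 being without 35S-PaWRKY1 replicate 2, where limma gave an unadjusted p under 0.05 to 1062. The causes were not tested. With 3 arrays per group, the 95% confidence intervals still hold, if log2, factors of up to 1.64 for GH3.3, 2.17 for HAT2 and 1.7 for IAA29, and down to 0.751 for LBD29.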
